A study of Homo sapiens with 11 samples.

Results

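The miR-34 family was followed in SH-SY5Y cells, a human neuroblastoma line, that were exposed to hydrogen peroxide (H2O2) and differentiated into neuron-like cells. The family was taken by name as its 6 mature miRNAs, the 5p and 3p arms of miR-34a, miR-34b and miR-34c, and these were 6 of 2576 miRNAs in the count tables of both experiments. Small RNA had been sequenced in 11 libraries, and the question was which miRNAs responded to oxidative stress applied before or during differentiation. All cells of all 4 groups received all-trans retinoic acid (ATRA) at 10 µM for 7 days, the agent that drives the neuronal differentiation of this line. In co-treatment, 3 libraries came from cells given 10 µM H2O2 together with ATRA for the 7 days, against 3 control libraries with ATRA and no H2O2. In pre-treatment, 3 libraries came from cells given 10 µM H2O2 for 3 days, which was removed before ATRA was added, against 2 control libraries without H2O2. The pre-treatment group of controls holds 1 library fewer than the others, and any further control culture was not analysed here. The experiments are described as having 3 biological replicates, all from a single line, so that the spread between libraries is that between cultures and says nothing of other neuroblastoma lines or of neurons.

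The miR-34 family is known as a set of miRNAs that are induced by DNA damage and other cell stress and that slow the cell cycle or favour apoptosis. Its members repress cell cycle and survival genes such as CDK4, CDK6, MET, BCL2 and, in neuroblastoma, MYCN. miR-34a is made from its own gene and is found in many tissues, brain included, whereas miR-34b and miR-34c share a primary transcript that is best known from lung, testis and other ciliated epithelia. A mature miRNA finds its targets mainly through its seed, bases 2 to 8 from its 5′ end, and each hairpin can yield a miRNA from its 5′ arm (5p) and its 3′ arm (3p).

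The sequences of the members are shown so that their seeds can be compared. They are the RefSeq records on GRCh38.p14, in which 5 of the 6 members, all but miR-34c-5p, had a mature record. In the lines that follow each runs 5′ to 3′ with the seed in capitals.
hsa-miR-34a-5p: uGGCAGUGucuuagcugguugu
hsa-miR-34b-5p: uAGGCAGUgucauuagcugauug
hsa-miR-34a-3p: cAAUCAGCaaguauacugcccu
hsa-miR-34b-3p: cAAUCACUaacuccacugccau
hsa-miR-34c-3p: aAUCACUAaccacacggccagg
No seed was shared among these 5 members, and the seed of miR-34c-5p, which had no record, was not compared with theirs. The 5p arms of miR-34a and miR-34b share a run of 9 letters that starts 1 base later in miR-34b-5p, and with that shift 12 of 22 positions were identical. Within the second locus, miR-34b-3p and miR-34c-3p had 17 of 21 positions identical once shifted by 1 base, and the longest run of letters they shared was 10 bases.

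On the GRCh37 (hg19) assembly, to which the authors aligned their reads, the miR-34a hairpin lies at chr1:9211727-9211836 on the minus strand, inside the long non-coding RNA gene MIR34AHG, where 1 of 5 annotated transcripts holds it in an exon. The hairpins of miR-34b, at chr11:111383663-111383746, and of miR-34c, at chr11:111384164-111384240, lie on the plus strand with 417 bases between them. Both are inside the long non-coding RNA gene MIR34BHG, in which the miR-34c hairpin falls within an exon and that of miR-34b partly overlaps an exon. Both also lie within BTG4 on the opposite strand, outside its exons. The hairpins of miR-34a (110 bases) and miR-34b (84 bases) show where the arms compared here sit in their precursors, with the mature arms in capitals.
MIR34A: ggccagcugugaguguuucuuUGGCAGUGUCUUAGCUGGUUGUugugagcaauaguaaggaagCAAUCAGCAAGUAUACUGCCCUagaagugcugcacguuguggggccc
MIR34B: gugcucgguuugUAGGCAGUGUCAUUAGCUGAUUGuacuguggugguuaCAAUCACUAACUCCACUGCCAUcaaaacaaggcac

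Library totals ranged from 5343953 to 8927582 miRNA counts, and 3 counts, taken as the detection limit, corresponded to between 0.336 and 0.561 CPM (counts scaled to a common library total). The 2 pre-treatment controls stood apart from each other, with a correlation of 0.932 across the log2 CPM of 868 miRNAs, against 0.977 to 0.991 for pairs of libraries within the other groups. Of 6 miRNAs listed as markers of neuronal or neuroblastoma identity, miR-375, miR-128-3p, miR-7-5p and miR-92b-3p were abundant, miR-9-5p held at most 46 counts, and the neuronal miR-124-3p was at 0 in 5 libraries and never above 7 counts. Their summed level was 4819 to 6308 CPM in co-treatment controls, 5167 to 6077 CPM in co-treatment H2O2 libraries, 5177 and 7923 CPM in the pre-treatment controls and 4422 to 4641 CPM in pre-treatment H2O2 libraries. By the exact test 1 of the 5 tested was lowered in co-treatment (miR-9-5p, 4.83 to 2.30 CPM, FDR 0.0493) and 1 in pre-treatment (miR-375, 4210.4 to 1683 CPM, FDR 0.0168). Among all miRNAs tested 15.6% were lowered in co-treatment and 9.91% in pre-treatment. A second test, edgeR's quasi-likelihood test, called 0 of the 5 in either experiment, where it called 22.9% and 1.96% of all miRNAs. Of 10 miRNAs listed as markers of blood, liver or epithelial cells, 9 were in the tables under the listed name. The other, miR-203a-3p, was not found under that name. An entry named miR-203a (mean log2 CPM 5.30, log2FC −0.11 and exact test FDR 0.821 in co-treatment) is left out of the sums and shares. The summed level of the 9 was 176 to 324 CPM in co-treatment controls, 226 to 567 CPM in co-treatment H2O2 libraries, 283 to 342 CPM in pre-treatment controls and 566 to 817 CPM in pre-treatment H2O2 libraries. In 10 of the 11 libraries 86.1% to 96.4% of this sum was the liver miRNA miR-122-5p. In pre-treatment control 1 it was 27.0%, beside 39.5% of the epithelial miR-205-5p (1007 counts, against 10 to 32 in the other libraries) and 21.2% of the myeloid miR-223-3p (540 counts, against 3 to 35). miR-144-3p was at 0 in 3 libraries. By the exact test 1 of the 8 tested was raised and 1 lowered in co-treatment, where 10.6% and 15.6% of all miRNAs were. In pre-treatment 2 were raised and 2 lowered, where 5.41% and 9.91% of all miRNAs were. The quasi-likelihood test called 1 raised and 1 lowered in co-treatment, and 1 raised (miR-451a) and 0 lowered in pre-treatment. Those raised by the exact test in pre-treatment were miR-122-5p (177 to 652 CPM, FDR 0.0116) and miR-451a (0.860 to 6.06 CPM, FDR 1.54e-04), and those lowered by it were miR-205-5p (70.0 to 3.01 CPM, FDR 0.00271) and miR-223-3p (36.5 to 1.24 CPM, FDR 0.0107). In pre-treatment the blood, liver and epithelial sum was thus higher, and the neuronal sum lower, in all H2O2 libraries than in both controls. The lists did not move as a whole. Of the 8 tested in the first list, only miR-122-5p and miR-451a had a positive log2FC, against 3 of the 5 tested neuronal markers. The neuronal sum fell with miR-375, while miR-128-3p was higher in the H2O2 libraries (1733 to 1879 CPM) than in the controls (1076 and 1305 CPM). The part of either list in the pre-treatment results was not tested.

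miR-34a-5p made up 99.1% to 99.7% of all family counts in every library. It held 41188 to 114104 counts and ranked between 15 and 28 among all miRNAs of a library. The next levels were those of its partner arm miR-34a-3p, with 51 to 529 counts and ranks of 232 to 441, and of miR-34c-5p, with 22 to 150 counts and ranks of 320 to 541. miR-34a-3p held more counts than miR-34c-5p in all 11 libraries, but the first pre-treatment control held 51 and 48 counts of them. miR-34b-3p (0 to 32 counts), miR-34b-5p (1 to 24) and miR-34c-3p (1 to 16) overlapped in level and could not be ordered. miR-34c-3p was at or under 3 counts in 5 libraries, miR-34b-5p and miR-34b-3p in 1 library each. Levels of different miRNAs also carry their own ligation and amplification bias, and in bulk RNA fewer cells making a miRNA and less of it per cell cannot be told apart.

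**Figure D1:**
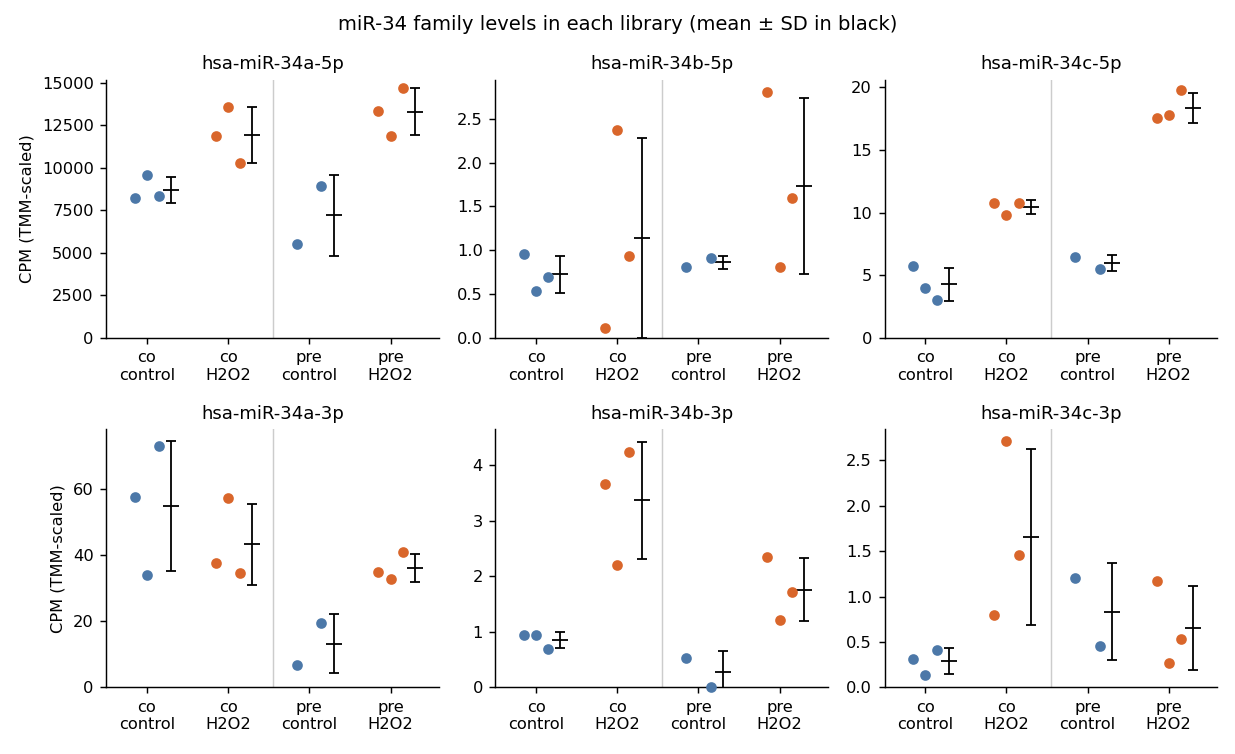
Level of each miR-34 member, in CPM scaled by TMM factors within its experiment, in each of the 11 libraries, with 1 panel a member and the mean ± SD of each group in black, drawn from 0 upwards. The H2O2 libraries of miR-34c-5p (9.82 to 10.7 CPM in co-treatment, 17.5 to 19.8 CPM in pre-treatment) all sit above their controls, as do those of miR-34a-5p and miR-34b-3p.

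In co-treatment, miR-34c-5p and miR-34b-3p, both from the miR-34b/c locus, were called upwards among the 5 members tested. miR-34c-5p was above the low-count filter in every library. miR-34b-3p passed that filter only with its H2O2 libraries, where it was high, so its call is given as a description. A call required 2 things of edgeR's exact test, a false discovery rate (FDR) under 0.05 over all miRNAs tested and a log2 fold change (log2FC) of more than 0.6 in size. Among all 790 miRNAs tested, 26.2% were called and 10.6% were called upwards. No member was down-regulated by the exact test, where 15.6% of all miRNAs were, and 0 of the 5 fell at an unadjusted p under 0.05. edgeR's quasi-likelihood test called the same 2 members and 22.9% of all miRNAs. In 4 of the 6 members every H2O2 library lay above every control, which 19.5% of the miRNAs tested did. These 4 were miR-34a-5p, miR-34b-3p, miR-34c-5p and miR-34c-3p, the last of them under the low-count filter and not tested.

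In pre-treatment the exact test again called miR-34c-5p and miR-34b-3p upwards among the 6 members tested, where 15.3% of the 868 miRNAs tested were called and 5.41% were called upwards. miR-34c-5p was above the low-count filter in every library. Both controls of miR-34b-3p were under that filter, so that it was tested only through the H2O2 libraries, and its call is again a description. None was down-regulated by the exact test, where 9.91% of all miRNAs were, and 0 of the 6 fell at an unadjusted p under 0.05. edgeR's quasi-likelihood test called 0 of the 6 members at the same thresholds, with 4 of them at an unadjusted p under 0.05, and 1.96% of all miRNAs. Every H2O2 library lay above both controls in 4 members (miR-34a-5p, miR-34a-3p, miR-34b-3p and miR-34c-5p), which 23.3% of the miRNAs tested did. By the exact test 0 members were called without any 1 of the 3 H2O2 libraries, and 2 to 4 members then had an unadjusted p under 0.05. The share of all miRNAs called in those fits is not given. Leaving out a control leaves 1 control, so no count of calls is given for those fits.

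**Figure D2:**
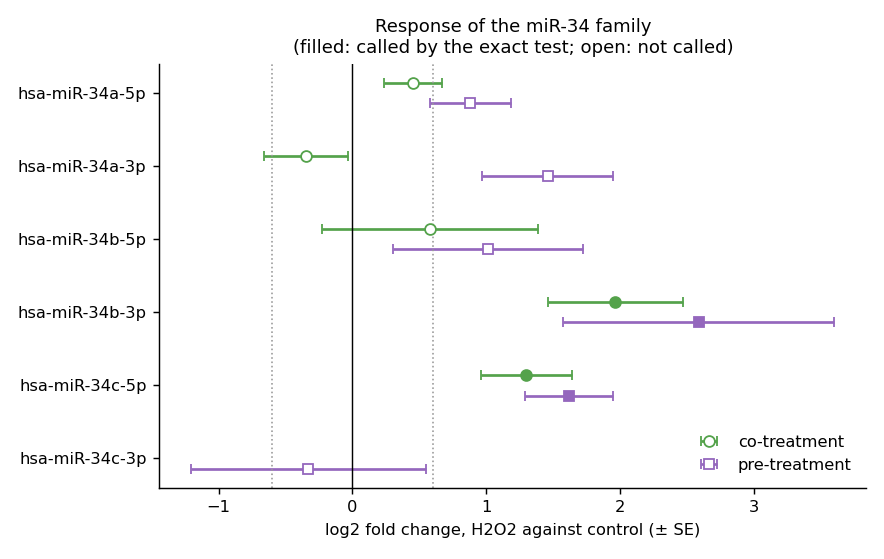
Log2FC of H2O2 against control for each member in co-treatment and pre-treatment, with bars of ± 1 SE from the quasi-likelihood fit, filled where the exact test called the member and open where it did not. Only miR-34b-3p (1.97 and 2.59) and miR-34c-5p (1.30 and 1.62) are filled, in both experiments, and miR-34c-3p has a value in pre-treatment alone, since it was not tested in co-treatment.

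miR-34c-5p, the best measured product of the miR-34b/c locus, was at 5.71, 4.01 and 3.04 CPM in the co-treatment controls and at 10.7, 9.82 and 10.7 CPM in the co-treatment H2O2 libraries (36, 30 and 22 against 94, 58 and 81 counts). The groups did not overlap, and the H2O2 libraries were closer to each other than the controls were. Means were 4.25 ± 1.35 CPM (SD, n = 3) and 10.4 ± 0.528 CPM (SD, n = 3). The log2FC was 1.30 ± 0.34 (SE), with an exact test FDR of 0.00342 and a quasi-likelihood FDR of 0.0124.

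In pre-treatment, miR-34c-5p was at 6.44 and 5.49 CPM in the controls and at 17.5, 17.8 and 19.8 CPM in the H2O2 libraries (48 and 36 against 150, 131 and 149 counts). Every H2O2 library was again above the controls, which were close to each other for this member although they stood apart in other miRNAs. Means were 5.97 ± 0.675 CPM (SD, n = 2) and 18.4 ± 1.22 CPM (SD, n = 3), and the log2FC was 1.62 ± 0.33 (SE). The exact test FDR was 0.00812 and that of the quasi-likelihood test 0.0520. Without H2O2 replicate 1, 2 or 3 the exact test FDR was 0.133, 0.142 and 0.118, at log2FC of 1.69, 1.70 and 1.57, and the call was lost in each case.

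miR-34b-3p, the partner arm of miR-34b-5p, was at 0.952, 0.935 and 0.691 CPM in the co-treatment controls and at 3.65, 2.20 and 4.24 CPM in the H2O2 libraries. These are 6, 7 and 5 counts against 32, 13 and 32 counts, with no overlap. The log2FC was 1.97 ± 0.50 (SE), with an exact test FDR of 0.00210 and a quasi-likelihood FDR of 0.0114, and the ratio of the summed counts was 4.05, with an exact 95% counting interval of 2.40 to 7.19.

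In pre-treatment the controls held 4 and 0 counts of miR-34b-3p and the H2O2 libraries 20, 9 and 13 counts, or 0.537 and 0 CPM against 2.34, 1.22 and 1.72 CPM. The groups did not overlap, but a control at 0 leaves the fold poorly set. The ratio of the summed counts was 6.27, with an exact 95% counting interval of 2.27 to 24.1, and the fitted log2FC of 2.59 ± 1.02 (SE) depends on the prior count of the fit. The exact test FDR was 0.0443 and the quasi-likelihood FDR 0.153. Without control 2, the library at 0, the log2FC against the lone control 1 was 1.67. Without control 1 the only control left was the one at 0, and the fitted log2FC of 6.76 is no measure of size. The exact test FDR was 0.271, 0.163 and 0.202 without H2O2 replicates 1, 2 and 3.

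The other products of this locus were near the detection limit. miR-34c-3p held 2, 1 and 3 counts in the co-treatment controls, all within that limit, and 7, 16 and 11 counts in the H2O2 libraries. The ratio was 5.37, with an exact 95% counting interval of 2.23 to 15.6. Without the low-count filter its log2FC was 2.46 with an exact test FDR of 0.0335, and in a joint quasi-likelihood fit of all 11 libraries it was 2.45 with an FDR of 0.0747.

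In pre-treatment, miR-34c-3p held 9 and 3 counts in the controls and 10, 2 and 4 counts in the H2O2 libraries, which overlapped, with a ratio of 0.796 (95% counting interval 0.353 to 1.84) and an exact test FDR of 0.922. miR-34b-5p held 6, 4 and 5 counts against 1, 14 and 7 in co-treatment and 6 and 6 against 24, 6 and 12 in pre-treatment. Its groups overlapped in co-treatment and met at 6 counts in pre-treatment. The ratios were 1.39 (95% counting interval 0.689 to 2.88) and 2.09 (1.08 to 4.36), and the exact test FDR was 0.639 and 0.464. miR-34b-5p was not called in either experiment, and its H2O2 libraries were spread more widely than its controls in both.

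miR-34a-5p, the dominant member, was at 8197, 9545 and 8342 CPM in the co-treatment controls and at 11865, 13574 and 10292 CPM in the co-treatment H2O2 libraries. All H2O2 libraries were above all controls, with the nearest of the controls and H2O2 libraries at 9545 and 10292 CPM. Means were 8695 ± 740.2 CPM (SD, n = 3) and 11910.4 ± 1642 CPM (SD, n = 3). The log2FC of 0.45 ± 0.21 (SE) was under the fold threshold of 0.6 and its exact test FDR was 0.180, so that miR-34a-5p was not called. Its log2FC exceeded that of 70.3% of the miRNAs tested.

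In pre-treatment, miR-34a-5p was at 5529 and 8899 CPM in the controls and at 13346, 11897 and 14665 CPM in the H2O2 libraries. All H2O2 libraries were above both controls, and the controls differed more from each other than the H2O2 libraries did. Means were 7214 ± 2384 CPM (SD, n = 2) and 13303 ± 1385 CPM (SD, n = 3), the log2FC was 0.88 ± 0.30 (SE) and the exact test FDR 0.0965, which is not a call. With only control 2 as reference the log2FC was 0.63, and with only control 1 it was 1.24. In both fits the lone control is assumed to vary as the H2O2 libraries did.

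miR-34a-3p, made from the same hairpin, was at 57.6, 34.1 and 73.1 CPM in the co-treatment controls and at 37.7, 57.4 and 34.8 CPM in the H2O2 libraries. The groups overlapped, and the log2FC was −0.35 ± 0.31 (SE) with an exact test FDR of 0.460. In pre-treatment it was at 6.85 and 19.5 CPM in the controls and at 34.9, 32.9 and 41.0 CPM in the H2O2 libraries, without overlap. The log2FC was 1.46 ± 0.49 (SE) with an exact test FDR of 0.0670, which is not a call. Against control 2 alone the log2FC was 0.94, and against control 1 alone it was 2.38. In both fits the lone control is assumed to vary as the H2O2 libraries did.

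The low values of miR-34a-3p lay in the pre-treatment controls. With all 11 libraries scaled together, these were at 7.21 and 19.0 CPM, below every other library, the others ranging from 31.1 to 74.7 CPM. The pre-treatment H2O2 libraries, the highest of them at 43.4 CPM, were within the range of the co-treatment libraries. Levels set across experiments also carry any batch between them.

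**Figure D3:**
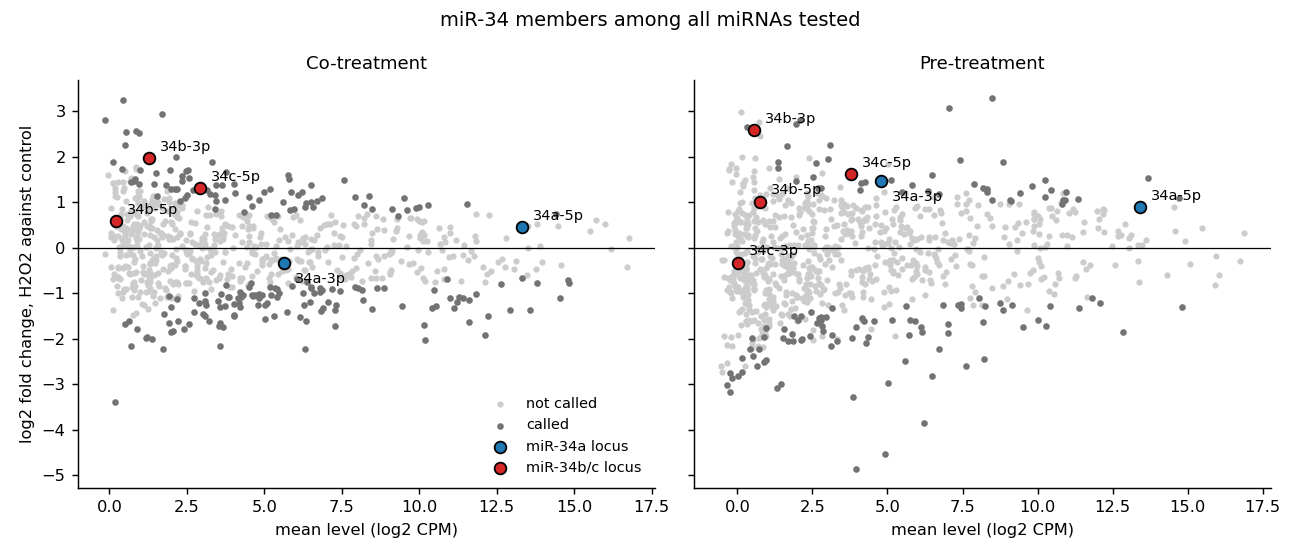
Log2FC of H2O2 against control plotted on the mean level (log2 CPM) of all 790 miRNAs tested in co-treatment and all 868 tested in pre-treatment, with the miR-34 members marked by name. miR-34a-5p sits at the high end of the level axis with a small positive log2FC (0.45 and 0.88), and miR-34b-3p and miR-34c-5p lie at low levels with log2FC of 1.30 to 2.59.

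The 2 loci were compared by summing the arms of each. In co-treatment the miR-34a locus was at 8749 ± 723 CPM in the controls and 11954 ± 1653 CPM in the H2O2 libraries, and the miR-34b/c locus at 6.13 ± 1.61 CPM and 16.6 ± 1.13 CPM (SD, n = 3 each). The miR-34b/c locus gave 0.961, 0.586 and 0.575 counts per 1000 counts of the miR-34a locus in the controls against 1.29, 1.25 and 1.68 in the H2O2 libraries. All 3 H2O2 libraries were above all 3 controls. On the log2 scale the ratio of the loci was −10.51 ± 0.42 in the controls and −9.49 ± 0.24 in the H2O2 libraries (SD, n = 3 each), a difference of 1.02 or 2.03-fold. No test was made of this sum over the members. Leaving out each library in turn gave differences of 0.89 to 1.27, the 5p arms alone 0.81 and miR-34c alone 1.01.

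In pre-treatment, the miR-34a locus was at 7227 ± 2393 CPM (SD, n = 2) in the controls and 13339 ± 1389 CPM (SD, n = 3) in the H2O2 libraries, and the miR-34b/c locus at 7.93 ± 1.51 and 22.5 ± 2.12 CPM. The counts per 1000 were 1.62 and 0.769 in the controls against 1.78, 1.68 and 1.61 in the H2O2 libraries. Control 1 fell among the H2O2 libraries and control 2 well below them, so the groups overlapped. The log2 ratio was −9.80 ± 0.76 in the controls against −9.21 ± 0.08 in the H2O2 libraries, a difference of 0.59 or 1.51-fold, which rested on control 2. It was 1.13 without control 1 and 0.06 without control 2. Of the 5p arms alone, which hold most counts of the family, the difference was 0.64 and the groups did not overlap.

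**Figure D4:**
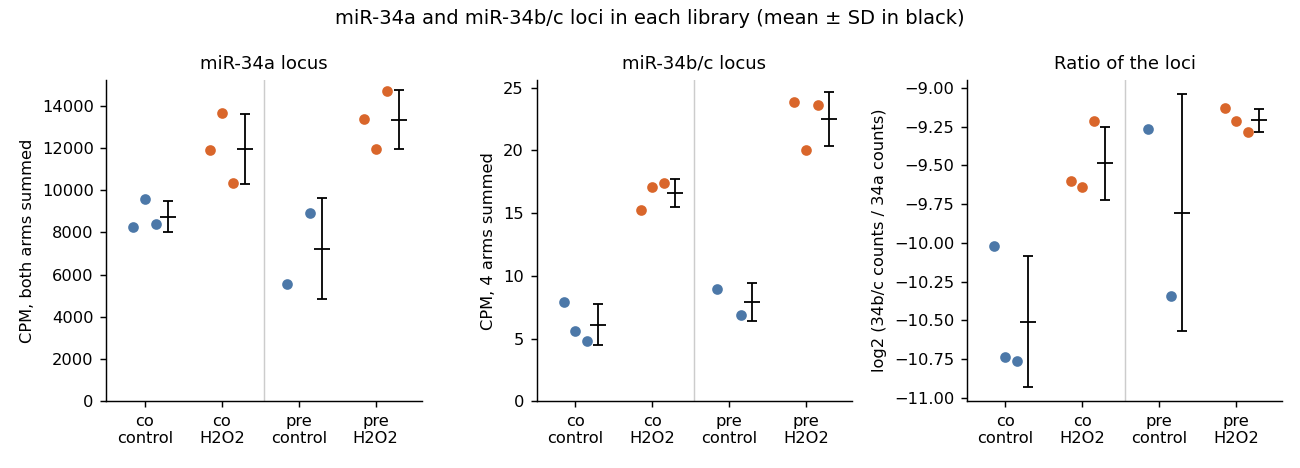
Summed level of the miR-34a locus and of the miR-34b/c locus (CPM) and the log2 ratio of their counts, in each library, with the mean ± SD of each group in black. In the panel of the ratio the co-treatment groups are separate (−10.51 and −9.49 on average) and the pre-treatment groups overlap (−9.80 and −9.21).

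The balance of the arms of each hairpin was also read in each library, without a test. The miR-34a hairpin gave 142, 280 and 114 counts of 5p for each count of 3p in the co-treatment controls and 315, 236 and 296 in the H2O2 libraries, and these groups overlapped. The pre-treatment controls gave 808 and 456, and the H2O2 libraries 383, 361 and 358. It was thus lower in all pre-treatment H2O2 libraries, by 0.72 on the log2 scale on average, whereas the co-treatment average was 0.76 higher. For miR-34c the 5p arm held 78.4% to 98.5% of the counts of its hairpin over the 11 libraries. For miR-34b the 5p share was 50.0%, 36.4% and 50.0% in the co-treatment controls and 3.03%, 51.9% and 17.9% in the H2O2 libraries, with 1 count of 5p and 32 counts of 3p in the first of these. Its shares in pre-treatment were 60.0% and 100% in the controls, from 10 and 6 counts, and 54.5%, 40.0% and 48.0% in the H2O2 libraries.

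The response to H2O2 was then compared between the experiments by fitting both together with edgeR's quasi-likelihood method and testing their interaction. Experiment and any batch between the experiments cannot be told apart in this comparison. miR-34a-3p differed, with a log2FC 1.87 ± 0.59 (SE) higher in pre-treatment than in co-treatment and a quasi-likelihood FDR of 0.0289, 1 member called where 27.3% of the 945 miRNAs tested were. The difference for miR-34a-3p was between 1.13 and 2.74 when 1 library was left out, and it was no longer called without co-treatment control 1 or 3, co-treatment H2O2 replicate 1 or 3, pre-treatment control 1 or pre-treatment H2O2 replicate 3. The lowest of these differences, 1.13 with an edgeR FDR of 0.112, came without pre-treatment control 1.

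The other members gave no call in this comparison. For miR-34c-5p the difference was 0.33 ± 0.47 (SE), for miR-34a-5p 0.45 ± 0.33 and for miR-34b-3p 0.62 ± 0.99, with quasi-likelihood FDR of 0.631, 0.332 and 0.679. For the scarce miR-34c-3p it was −2.76 ± 1.21 (quasi-likelihood FDR 0.103) and for miR-34b-5p 0.44 ± 1.21 (0.811). A value that misses the threshold does not show that these 5 members responded alike in both experiments. Without pre-treatment control 2, which left 1 pre-treatment control, the difference was 0.78 for miR-34a-5p and −3.29 for miR-34c-3p.

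Other miRNAs carry the seed of a member, the part that chiefly selects targets. The miR-449 cluster, which is known from multiciliated cells, lies within CDC20B on the minus strand of chromosome 5, outside its exons. RefSeq gives these mature sequences, with the seed in capitals, for comparison with miR-34a-5p and miR-34b-5p.
hsa-miR-449a: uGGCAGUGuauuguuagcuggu
hsa-miR-449b-5p: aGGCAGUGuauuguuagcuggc
hsa-miR-449c-5p: uAGGCAGUguauugcuagcggcugu
The first 2 have the seed of miR-34a-5p, and miR-449c-5p that of miR-34b-5p, which miR-2682-5p also carries. They lie at chr5:54466414-54466435, chr5:54466534-54466555 and chr5:54468141-54468165 on GRCh37.

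None of the 3 seed relatives that were tested was called in either experiment by the exact test or the quasi-likelihood test, and 0 of them had an unadjusted p under 0.05 by either. miR-449a held 8, 14 and 5 counts in the co-treatment controls and 12, 15 and 1 in the H2O2 libraries, and 1 and 10 against 18, 11 and 14 counts in pre-treatment. Its log2FC was 0.04 ± 0.73 (SE; exact test FDR 0.970) and 1.15 ± 0.87 (exact test FDR 0.438). miR-449c-5p held 12, 8 and 1 against 3, 11 and 6 counts, and 2 and 12 against 11, 10 and 15 counts, with log2FC of −0.09 (exact test FDR 1) and 0.57 (exact test FDR 0.752). miR-449b-5p held at most 3 counts and was not tested.

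miR-2682-5p was the most abundant of these relatives, with 400, 584 and 532 against 501, 375 and 455 counts in co-treatment and 364 and 494 against 625, 526 and 569 counts in pre-treatment. Its log2FC was −0.25 ± 0.26 (SE; exact test FDR 0.530) and 0.24 ± 0.31 (exact test FDR 0.748). In each of the 11 libraries it held more counts than any member except miR-34a-5p, and its CPM overlapped between the groups in both experiments.

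The miRNAs with the pattern most like that of a member were found by the root-mean-square difference of log2 CPM over the 11 libraries, after centring each miRNA on its mean, among 489 miRNAs. Nearest to miR-34a-5p were miR-532-5p (0.228), miR-362-5p (0.229), miR-185-5p (0.240), miR-93-5p (0.248) and miR-146b-5p (0.257), where the median over all miRNAs was 0.670. None of these 5 was called in either experiment by the exact test, as was the case for miR-34a-5p itself, and 2 of them (miR-532-5p and miR-185-5p) had an unadjusted p under 0.05 in pre-treatment. Nearest to miR-34c-5p were miR-1287-5p (0.362), miR-28-3p (0.439), miR-185-3p (0.449), miR-339-3p (0.455) and miR-330-5p (0.504), against a median of 1.06.

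Among the neighbours of miR-34c-5p, miR-185-3p was called in co-treatment (log2FC 0.84, exact test FDR 0.0405), and miR-1287-5p (1.23, exact test FDR 0.0291), miR-28-3p (1.45, exact test FDR 0.0197) and miR-339-3p (1.05, exact test FDR 0.0346) in pre-treatment. miR-34a-5p and miR-34c-5p were 0.644 apart from each other, so that each had at least 5 nearer neighbours than the other. The neighbours were chosen by likeness to a member over these same libraries. Sharing the calls of that member, or its lack of them, follows in part from that choice. Among all miRNAs tested 10.6% were called upwards in co-treatment and 5.41% in pre-treatment. The distance is a description of these 11 libraries.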

How the data were processed

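Small RNA libraries (QIAseq miRNA Library Kit) were sequenced from 11 cultures of 4 groups, taken from the labels. The authors made the deposited counts, which are not normalised, by trimming reads, aligning them to hg19 and counting them per mature miRNA. The submitters' processing notes name cutadapt 2.10, FastQC 0.11.8, Bowtie2 2.4.1, HTSeq 0.7.2 and edgeR 3.6.1. Whether molecular identifiers were collapsed is not given in the sources used here, so intervals and detection limits cover counting error only. The authors' deposited tables of fold changes, p-values and FDR were not used.

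Here each experiment was tested with the exact test of edgeR 4.0.16 (R 4.3.3) with TMM factors and Benjamini-Hochberg adjustment over all miRNAs kept, with calls at an FDR under 0.05 and a log2FC of more than 0.6 in size. A miRNA was kept above 0.936 CPM in 3 or more co-treatment libraries or 0.721 CPM in 2 or more pre-treatment libraries, which is 5 counts in the smallest library. Standard errors and the interaction came from quasi-likelihood fits. Intervals of count ratios are exact binomial (95%). Nearest patterns used miRNAs of a mean CPM of at least 5 and a prior count of 0.5. DESeq2 1.42.0, other scalings, filters and fold thresholds, a replicate block, GC offsets and each library left out were alternatives. Scripts were tested on simulated data. The named miRNAs were the 6 members, other miRNAs with a member's seed and a count, called members of 2 further miRNA lists, which are not reported here, and the 5 nearest to miR-34a-5p and to miR-34c-5p. Members and lists were chosen with earlier results of these data known.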

Additional observations from a re-analysis of the deposited data

Results flagged for a closer look

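The response of miR-34a-3p to H2O2 differed between the experiments, by 1.87 on the log2 scale (pre-treatment minus co-treatment, edgeR quasi-likelihood interaction FDR 0.0289). In co-treatment its log2FC was −0.35, from 54.9 ± 19.7 to 43.3 ± 12.3 CPM (SD, n = 3 each), and in pre-treatment it was 1.46, from 13.2 ± 8.96 (n = 2) to 36.3 ± 4.20 CPM (n = 3). Neither of these was called on its own. Every pre-treatment H2O2 library was above both controls, while the co-treatment groups overlapped. Without pre-treatment control 1, which held 51 counts, the difference was 1.13 (quasi-likelihood FDR 0.112). Of 14 alternatives, 7 kept the call and 7 lost it. It was the call of 1 of 6 members, where 27.3% of the 945 miRNAs tested were called, so a difference of this kind was common.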

How the results depend on the processing

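In co-treatment miR-34c-5p was called in all 17 alternatives (log2FC 1.19 to 1.66), and 2 or 3 members were called in each. miR-34b-3p was called in all 16 that tested it (1.80 to 2.28). It passed the low-count filter only with its H2O2 libraries, so these calls remain a description. With the filter required in all libraries it was not tested, and miR-34a-5p was called beside miR-34c-5p (log2FC 0.63, exact test FDR 0.0479). The members called thus changed with the filter. In pre-treatment the exact test called 2 members and 133 of the 868 miRNAs tested. The quasi-likelihood test called 0 members (4 at an unadjusted p under 0.05) and 17 of the 868. Library-size scaling called 4 members and 148 of the 868. In other settings, for which no share of all miRNAs is given, the count was 0 with the replicate block (3 at an unadjusted p under 0.05). It was 1 with RLE size factors or no low-count filter, 4 with the joint fit of 11 libraries and 0 when 1 H2O2 library was left out. DESeq2 called miR-34c-5p and miR-34a-3p (log2FC 1.47, DESeq2 FDR 0.0208), as did the filter in all libraries (1.34, exact test FDR 0.0441). For the difference between the experiments, where 1 member was called, the replicate block gave 0 (1 at an unadjusted p under 0.05). Leaving out 1 library gave 0 or 1, with the fits that leave 1 pre-treatment control set aside. The log2FC of miR-34c-3p in pre-treatment, −0.33, was −0.86 to 0.0815 when 1 library was left out, with the sign turned without H2O2 replicate 2 (0.0815). The causes were not tested. In co-treatment the replicate numbers showed no pairing of the libraries (correlations of deviations of same-numbered libraries of −0.16 to 0.04). In pre-treatment these correlations were −0.05 and 0.22. They cannot decide on a pairing there, since the deviations of 2 controls from their mean mirror each other. The block is thus a check on a shared number only. A correction for GC content could be made for miR-34a-5p and miR-34a-3p alone, and the co-treatment log2FC of miR-34a-5p was 0.62 (quasi-likelihood FDR 0.0240) among miRNAs with a GC value and 0.45 (FDR 0.124) with the correction. Depth limits miR-34b and miR-34c-3p, at 0 to 32 counts a library, and the 2 controls limit pre-treatment.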
